A study of Mus musculus with 6 samples.

Results

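Malat1, Neat1, Rmrp, Rpph1 and Rn45s are noncoding RNAs of the nucleus and nucleolus. Their levels were compared in CD31 bead fractions of tumors, labelled as tumor endothelial cells (TECs), with and without activated Notch signaling. They are 5 of the 23473 rows with RefSeq gene names, and of 56826 rows in all, in a bulk RNA-seq table. The 5 rows were chosen by gene name, with their level and their share of reads in these same libraries in view, and the comparison of Ctrl with NICeCA was part of that choice. Their levels and differences are therefore given as a description, without a p-value. The libraries were 3 from NICeCA mice (Cdh5 Cre-ERT2 with a Rosa26 Notch1 intracellular domain behind a floxed stop, opened by tamoxifen, so that Notch signaling is on in cells that express Cdh5) and 3 from Ctrl mice, which the labels call wild type. All were C57BL/6 mice of 8 weeks that carried subcutaneous Lewis lung carcinoma (LLC) tumors, a transplanted mouse lung cancer line. TECs were captured on CD31 beads from tumors that, per the labels, were dissected on different days, while the study's methods give a single day after inoculation and 3 mice in each group for this experiment. The sources used here do not say whether Ctrl mice carried Cre or received tamoxifen.

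Malat1 and Neat1 are long RNAs that are transcribed by RNA polymerase II and kept in the nucleus. Malat1 gathers in nuclear speckles, the stores of splicing factors, and Neat1 is the scaffold of paraspeckles, bodies that hold RNA-binding proteins such as SFPQ and NONO. Rmrp and Rpph1 are short RNAs made by RNA polymerase III, the RNA subunits of RNase MRP, which cuts the ribosomal RNA precursor, and of RNase P, which trims the 5′ ends of tRNAs. Rn45s is the precursor of ribosomal RNA, made by RNA polymerase I in the nucleolus. RNase P also cuts the 3′ ends of Malat1 and of the long form of Neat1, where no poly(A) tail is added and a U-rich and an A-rich stretch fold together instead.

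The sequences of the short RNAs, which took the most reads for their length, and of these 3′ ends are shown from GENCODE M21 transcripts (GRCm38, all on the minus strand), written as DNA. The 3′ stretch of Malat1 lies at chr19:5795922-5796037 and that of Neat1 at chr19:5824708-5824770. Capitals mark TTTTGCTTT and AAAGCAAAA, searched on the transcript strand.
Malat1 3′ stretch: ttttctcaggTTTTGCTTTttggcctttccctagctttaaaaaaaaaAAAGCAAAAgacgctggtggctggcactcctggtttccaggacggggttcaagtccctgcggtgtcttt
Neat1 3′ end: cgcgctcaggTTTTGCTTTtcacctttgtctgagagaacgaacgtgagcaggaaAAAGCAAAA

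Both motifs in this order, at most 100 bases apart, occurred in 13 of 141767 transcripts (0.00917%), which belong to 10 of 55341 gene names. In Malat1 the bases that follow the A-rich stretch are those of a tRNA-like RNA released by RNase P. In Neat1 the annotated long transcript of 20771 bases ends with the motif. Rmrp (chr4:43492788-43493058, 271 bases) is shown whole. Of Rpph1 (chr14:50807449-50807767, 319 bases), the first 300 bases are shown. Capitals mark the longest runs shared by both RNAs, 2 runs of 9 bases. In a global alignment 51.8% of the columns were identical. Neither the runs nor this share were compared with those of unrelated sequences, so no likeness of the RNAs is read from them.
Rmrp: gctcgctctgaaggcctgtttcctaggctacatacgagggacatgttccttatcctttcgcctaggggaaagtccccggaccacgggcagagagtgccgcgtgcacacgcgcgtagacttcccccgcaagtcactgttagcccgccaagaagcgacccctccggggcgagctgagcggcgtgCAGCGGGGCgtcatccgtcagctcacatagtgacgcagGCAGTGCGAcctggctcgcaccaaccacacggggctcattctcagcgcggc
Rpph1: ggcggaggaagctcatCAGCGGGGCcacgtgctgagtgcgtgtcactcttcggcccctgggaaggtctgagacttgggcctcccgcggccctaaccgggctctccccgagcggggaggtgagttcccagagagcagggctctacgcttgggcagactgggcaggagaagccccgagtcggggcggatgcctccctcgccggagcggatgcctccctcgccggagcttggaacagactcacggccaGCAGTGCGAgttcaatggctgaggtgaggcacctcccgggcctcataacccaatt

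The depth was similar in all libraries. Reads recovered from the RPKM values (reads per kilobase of the row, scaled to the reads on all rows) summed to 39000759 to 39823498 in Ctrl and 35303191 to 37239310 in NICeCA libraries. RPKM multiplied by the row length gives the share of reads directly, and the 95% Wilson interval of a share was at most 0.00686 percentage points to each side, which covers counting error only. The labelled endothelial cells were checked with 10 endothelial markers, none of which was at 0 and whose summed level was 191 to 526 RPKM in Ctrl and 443 to 583 RPKM in NICeCA libraries. The summed level of 10 macrophage markers was higher than that in every library (3369 to 4547 and 2900 to 4968 RPKM). Neutrophil markers (9 in the table) summed to 154 to 317 RPKM in Ctrl and 640 to 1809 RPKM in NICeCA libraries, pericyte markers (7) to 24.4 to 37.0 and 50.9 to 80.6 RPKM, and fibroblast markers (8) to 324 to 561 and 160 to 322 RPKM. Sums overlapped between the groups for T cell markers (35.0 to 64.6 and 36.9 to 55.6 RPKM), epithelial markers (6.86 to 12.6 and 6.50 to 8.83 RPKM) and red blood cell markers (15.6 to 27.4 and 5.66 to 23.8 RPKM), and no marker that is in the table was at 0 in all libraries. The part of these other cells in the differences given here was not tested, and in bulk samples fewer cells of a type and less RNA per cell cannot be told apart.

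The 5 RNAs together took 11.9%, 13.2% and 7.64% of the reads in Ctrl replicates 1 to 3 and 5.82%, 8.70% and 8.17% in NICeCA replicates 1 to 3. These shares are of the reads summed over all rows, where a read on overlapping RefSeq and FANTOM3 rows can count more than once. Of the reads on RefSeq rows alone, the 5 RNAs took 15.5%, 17.04% and 9.87% in Ctrl and 7.36%, 11.05% and 10.4% in NICeCA libraries. Over all rows the means were 10.9% ± 2.89 and 7.56% ± 1.53 (SD, n = 3), and on both totals the groups overlapped, since Ctrl replicate 3 lay within the NICeCA range. Rmrp and Rpph1 ranked 1 and 2 among RefSeq rows by mean RPKM and also by share of reads. Rn45s ranked 3 and Malat1 4 by share. Neat1 ranked 110 by share and held 0.0261% to 0.103% of the reads, so it is not among the rows with the most reads.

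**Figure D1:**
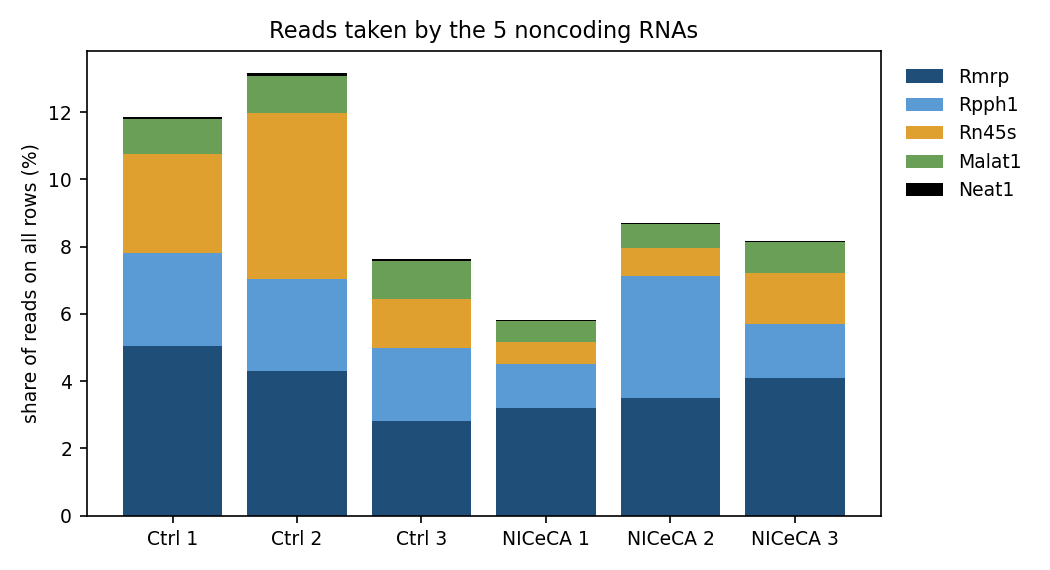
Stacked bars show the share of reads on all rows (%, y axis from 0) that each of the 5 noncoding RNAs took in each of the 6 libraries. The totals run from 5.82% in NICeCA replicate 1 to 13.2% in Ctrl replicate 2, and Rn45s is the segment that varies most.

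The 2 polymerase II transcripts were the members whose groups did not overlap. Malat1 (chr19:5795690-5802671) stood at 1492, 1571 and 1624 RPKM in Ctrl replicates 1 to 3 and at 888, 988 and 1307 RPKM in NICeCA replicates 1 to 3. Every NICeCA library lay below every Ctrl library, and NICeCA replicate 3 was the nearest to Ctrl. The means were 1562 ± 66.0 and 1061 ± 219 RPKM (SD, n = 3), so that Ctrl was 1.47 times as high, with a log2 difference (NICeCA minus Ctrl, of RPKM + 1) of -0.58 and a standard error of 0.17 from the limma fit over all rows. Its share of all reads was 1.09% ± 0.0461 in Ctrl and 0.741% ± 0.153 in NICeCA libraries (SD, n = 3).

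Neat1 had the lower level and the wider difference of the pair. Its row (chr19:5842302-5845478) covers the short form, which lies within the 5′ part of the long form, so reads of both forms count there. It held 227, 325 and 228 RPKM in Ctrl and 82.2, 109 and 132 RPKM in NICeCA libraries. The highest NICeCA library was below the lowest Ctrl library, and Ctrl replicate 2 stood above the other Ctrl libraries. The means were 260.0 ± 56.2 and 108 ± 24.7 RPKM (SD, n = 3), 2.42 times as high in Ctrl, and the log2 difference was -1.27 (standard error 0.22). Without Ctrl replicate 2 the log2 difference was -1.10. The ratio of Neat1 to Malat1 within a library, which does not depend on the library total, was 0.141 to 0.207 in Ctrl and 0.0926 to 0.110 in NICeCA libraries, without overlap.

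**Figure D2:**
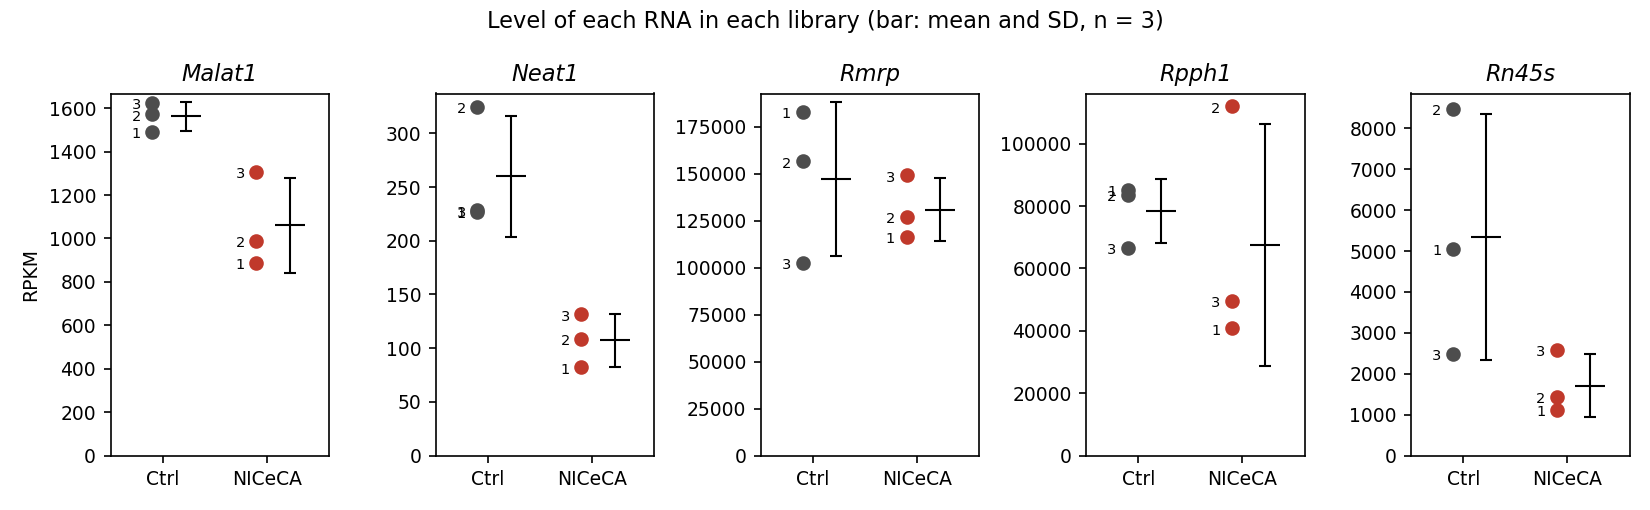
Each panel shows 1 noncoding RNA in RPKM (y axis from 0) with the 3 Ctrl and 3 NICeCA libraries as points numbered by replicate and the mean with its SD beside them. Malat1 and Neat1 are lower in every NICeCA library than in every Ctrl library, while the groups overlap for Rmrp, Rpph1 and Rn45s.

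The share of members with all 3 NICeCA libraries below all 3 Ctrl libraries was 2 of 5, where 24.4% of the 12320 tested rows were separated in this direction. All 5 members passed the filter of a mean of at least 1 RPKM, and all 5 had a negative log2 difference, as had 55.3% of all tested rows. The median log2 difference was -0.58 over the members and -0.05 over all tested rows. As the members were chosen with this contrast in view, nothing is read from these counts.

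Rows of FANTOM3 transcript models, which the same table holds, showed how the reads lay along both long RNAs. They share reads with the RefSeq rows and with each other, and so add position but no independent evidence. Of the 6 rows within Malat1, the row over bases 1 to 239 from the 5′ end had 877 ± 59.1 RPKM in Ctrl and 612 ± 114 RPKM in NICeCA libraries (SD, n = 3), 0.698 times the Ctrl mean, without overlap. The row over bases 4919 to 6673, which reaches into the 3′ stretch shown above, had 1721 ± 370 and 1325 ± 196 RPKM (SD, n = 3). That was 0.770 times the Ctrl mean, and there the groups overlapped. They also overlapped in the rows over bases 1560 to 2136, 3238 to 4278 and 3925 to 5357 (0.722, 0.713 and 0.767 times). Besides the first row, only the row over bases 2 to 231, which lies within it, separated the groups. The ratio of the 5′ row to the row over bases 4919 to 6673 was 0.623, 0.575 and 0.383 in the Ctrl libraries and 0.433, 0.474 and 0.475 in the NICeCA libraries. Ctrl replicate 3 thus had the lowest ratio of all libraries and the other Ctrl libraries the highest.

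For Neat1, 2 of the 12 FANTOM3 rows lie beyond the short form and so mark the long form, on which paraspeckles are built. The row over bases 5301 to 7404 from the 5′ end (chr19:5838075-5840178) held 57.2, 72.7 and 116 RPKM in Ctrl and 22.9, 20.2 and 33.1 RPKM in NICeCA libraries. The row over bases 9539 to 11361 (chr19:5834118-5835940) held 44.7, 72.5 and 67.4 RPKM in Ctrl and 14.5, 13.4 and 23.3 RPKM in NICeCA libraries. Both rows were lower in every NICeCA library than in every Ctrl library, at 0.310 and 0.278 times the Ctrl mean, beside 0.414 times for the row that both forms share. The level of the more distant row relative to the Neat1 row was 0.197 to 0.295 in Ctrl and 0.123 to 0.177 in NICeCA libraries, without overlap. For the nearer row the ratio was 0.224 to 0.508 and 0.186 to 0.279, with overlap. No row lies farther into the long form, so its 3′ end was not read here.

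**Figure D3:**
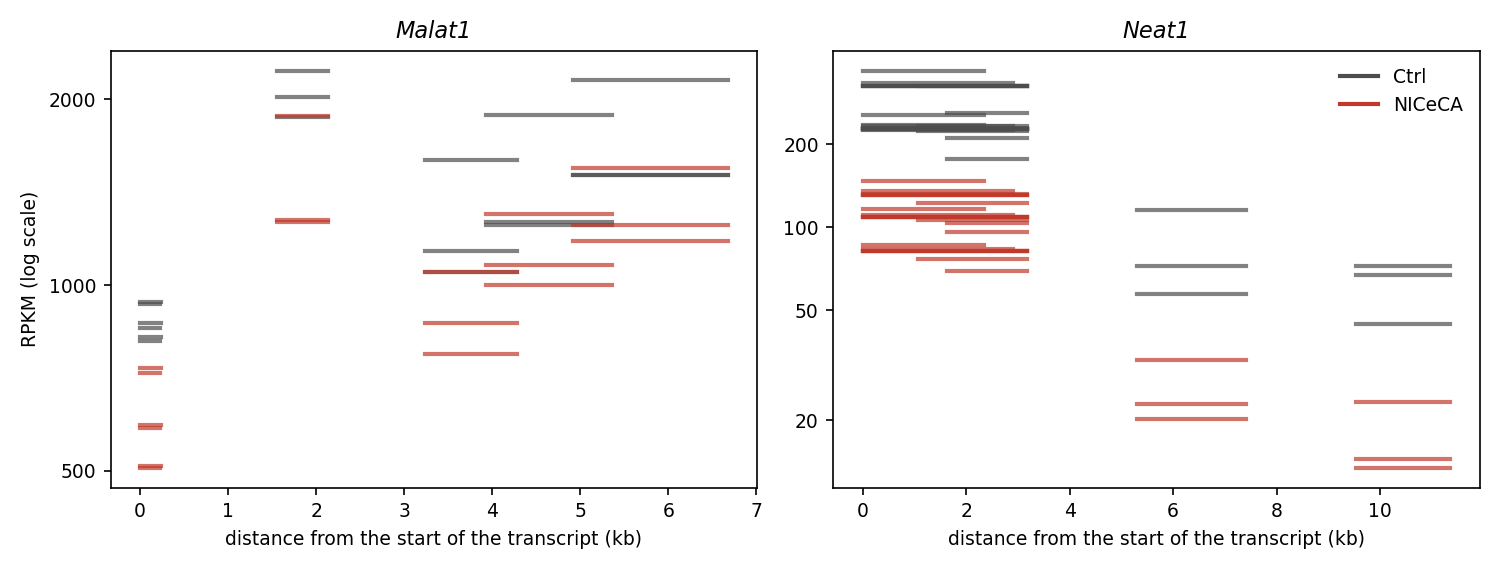
Horizontal lines show the RPKM (log scale) of each FANTOM3 row along Malat1 (left) and Neat1 (right) by its distance from the start of the transcript in kb, with 1 line for each library. In Neat1 the rows beyond the short form are at 20.2 RPKM or more and 116 RPKM or less near 6 kb, and all NICeCA lines there lie below all Ctrl lines.

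Rmrp and Rpph1 held far more reads per kilobase than any other RefSeq row, and neither separated the groups. Rmrp (chr4:43492785-43493059) had 183175, 156626 and 102754 RPKM in Ctrl and 116321, 127200 and 149252 RPKM in NICeCA libraries. Ctrl replicate 3 was the lowest of all 6 libraries and Ctrl replicate 1 the highest, with all NICeCA libraries between them. Rmrp took 4.06% ± 1.13 of the reads in Ctrl and 3.60% ± 0.461 in NICeCA libraries (SD, n = 3). The log2 difference was -0.14 with a standard error of 0.26, and without Ctrl replicate 1 it was 0.04.

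Rpph1 (chr14:50807447-50807771) varied most within the NICeCA group. It had 85134, 83672 and 66576 RPKM in Ctrl and 40761, 111885 and 49515 RPKM in NICeCA libraries. NICeCA replicate 2 was the highest of all 6 libraries, while the other NICeCA libraries were the lowest. Its share of reads was 2.55% ± 0.335 in Ctrl and 2.19% ± 1.26 in NICeCA libraries (SD, n = 3), and the log2 difference was -0.36 with a standard error of 0.37. The ratio of Rpph1 to Rmrp ranged from 0.465 to 0.648 in Ctrl libraries and was 0.350, 0.880 and 0.332 in NICeCA replicates 1 to 3. Between the RNA subunits of the 2 related enzymes, the Pearson r of log2 levels was 0.30 over 6 libraries that share the group difference, given as a description. In NICeCA replicate 2, where Rpph1 was highest, Rmrp stood within its range at 127200 RPKM. With 6 points, whether the 2 RNAs vary together cannot be decided.

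Rn45s, at chr17:39842997-39848829, had the widest range. It held 5049, 8473 and 2483 RPKM in Ctrl and 1119, 1435 and 2580 RPKM in NICeCA libraries. Ctrl replicate 3 lay below NICeCA replicate 3, so the groups overlapped, and the highest library held 7.57 times the level of the lowest. The share of reads was 3.11% ± 1.75 in Ctrl and 0.998% ± 0.448 in NICeCA libraries (SD, n = 3), and the log2 difference was -1.56 (standard error 0.46). Without Ctrl replicate 2 the difference was -1.14, and without Ctrl replicate 3 it was -2.03. Ribosomal RNA had been depleted from every sample before sequencing, so the row shows what that step left, and its part in the difference was not tested. Whether the reads came from the precursor or from the ribosomal RNAs cut from it was not tested either.

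The genome holds many copies of the ribosomal RNA genes and an annotated noncoding gene, Gm26917, overlaps the row on the same strand, so the assignment of reads to Rn45s is uncertain. The reads that were counted were not even along the row, and the part of repeated copies in this was not tested. The 2 FANTOM3 rows inside it, on the same strand and over bases 3357 to 4030, held 0.279 to 1.26 RPKM, which was 0.0108% to 0.0681% of the level of the whole row in the same library. For Malat1, by comparison, the rows inside lay between 50.02% and 144% of the level of the whole row.

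Because RPKM divides by all reads of a library, reads of these RNAs lower the values of every other row. With the reads of the 5 members taken out of the library total, the other rows rose by 0.18, 0.20 and 0.11 on the log2 scale in Ctrl replicates 1 to 3 and by 0.09, 0.13 and 0.12 in NICeCA replicates 1 to 3. The group means of this rise differed by -0.05. In the limma fit over 12320 rows, 725 genes were higher and 946 lower in NICeCA libraries at a Benjamini-Hochberg adjusted p under 0.05, and with the members' reads left out 714 were higher and 1208 lower. Of these calls, 43.4% were higher as deposited, 37.1% without the members' reads, 59.4% with trimmed mean scaling and 57.8% with quantile normalization.

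The genes whose levels followed each member most closely over the 6 libraries were found by Pearson r of log2(RPKM + 1), which is a description of 6 points that share the group difference. They were picked as the highest r among the 12320 tested rows, members left out, so high values arise in part from that choice. Some were low, such as Mir125b-1 at 1.07 to 4.00 RPKM. For Neat1 they were Tnrc18 (r = 0.998), Usp42, a ubiquitin protease (0.998), and Gm14420 (0.998). For Malat1 they were Zcchc7 (0.994), Mir125b-1 (0.994) and Cnn3, a calponin (0.992). For Rmrp the closest row was Scarna13 (0.996), another short nuclear RNA, which held 1744, 1384 and 733 RPKM in Ctrl and 912, 963 and 1253 RPKM in NICeCA libraries, the same order as Rmrp. E130102H24Rik (0.995) and Gna11 (0.993) followed. Rn45s was closest to Ccdc57 (0.998), Cit (0.998) and Zfp579 (0.997), and Rpph1 to Zfp488 (0.988), Nit2 (0.942) and Zfp874b (0.937). Among the members, r was 0.93 between Malat1 and Neat1 and 0.92 between Neat1 and Rn45s.

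Lists of genes of the related machinery, written from general knowledge but with earlier results of these data known, were tested. Of 146 genes in 8 lists, 116 passed the filter, of which 10 (8.62%) were lower and 0 higher in NICeCA libraries at a limma adjusted p under 0.05. Over all tested rows 7.68% were lower and 5.88% higher, so the share of lower genes was near that of all rows. At an unadjusted p under 0.05, 5 of the 116 (4.31%) were higher and 27 (23.3%) lower, where 14.4% of all tested rows were higher and 21.1% lower, and limma voom on recovered reads called 0 higher and 11 lower. The median log2 difference of the 116 genes was -0.14. The number called depended on which libraries were fitted. Without NICeCA replicate 1 and without NICeCA replicate 2, 0 of the 116 genes were called lower, where the calls over all rows also dropped, to 14 and 1 lower. The log2 difference of Srrm2 was then -1.17 and -1.40, beside -1.40 over all libraries. Without Ctrl replicate 2 Ltbp3 alone was called lower, and without Ctrl replicate 1 Kcnq1ot1, Ltbp3, Polr1a and Srrm2 were. With the members' reads left out of the library total 15 were called lower, and with no filter on low rows, which raised the number tested to 22072, 0 were.

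**Figure D4:**
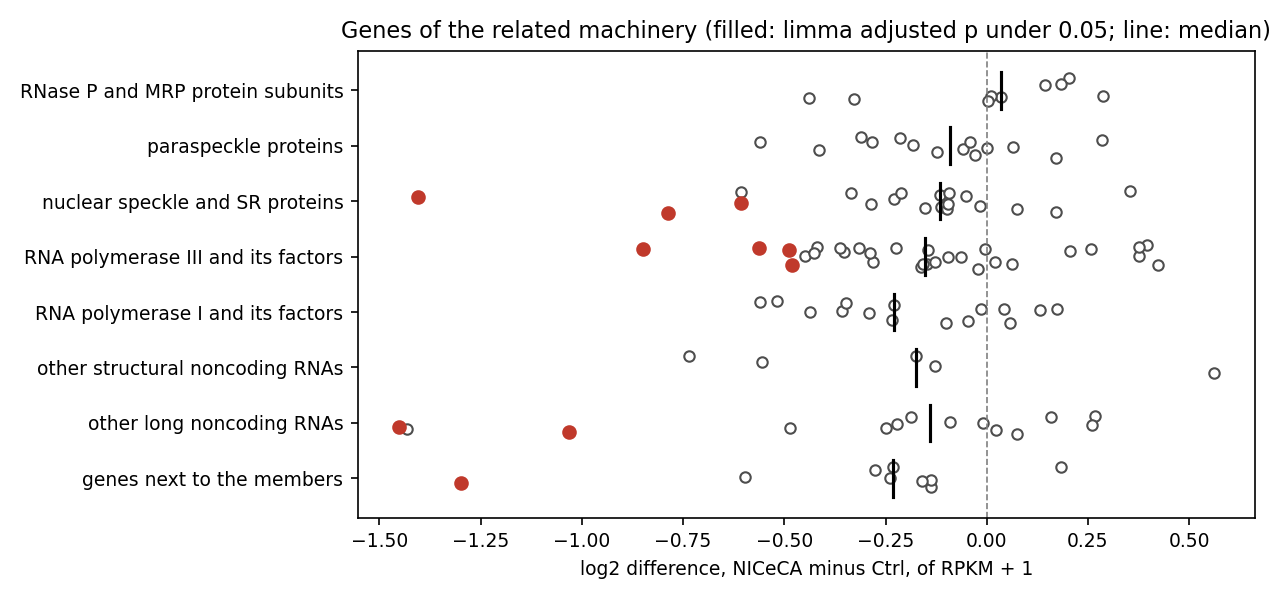
Each point is a tested gene of the 8 lists, placed by its log2 difference between NICeCA and Ctrl (x axis, RPKM + 1), with filled points for a limma adjusted p under 0.05 and a line at the median of each list. All 10 filled points lie to the left of 0, and the median of 7 of the 8 lists does too.

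Among proteins of nuclear speckles, where Malat1 resides, 3 of 20 tested genes (15%) fell and 0 rose, beside 7.68% and 5.88% of all tested rows. The median log2 difference was -0.11. At an unadjusted p under 0.05, 0 were higher and 4 (20%) lower, where 14.4% and 21.1% of all tested rows were. Limma voom called 0 higher and 2 lower. Srrm2, a scaffold of speckles, had 79.6, 112 and 75.6 RPKM in Ctrl and 23.1, 32.1 and 46.1 RPKM in NICeCA libraries. The groups lay far apart, with a log2 difference of -1.40 (standard error 0.26, limma adjusted p = 0.024). Acin1, part of a complex that binds spliced RNA, fell from 27.2 ± 2.15 to 17.5 ± 1.74 RPKM (SD, n = 3; limma adjusted p = 0.031), and Pnn, a speckle protein found with SR proteins, fell from 20.4 ± 5.53 to 11.3 ± 2.37 RPKM (SD, n = 3; limma adjusted p = 0.049). Limma voom did not call Pnn (adjusted p = 0.061). Of 14 alternative fits, the call was lost in 9 for Pnn, in 6 for Acin1 and in 4 for Srrm2.

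None of the 14 paraspeckle proteins passed the test in the limma fit or in limma voom. At an unadjusted p under 0.05, Rbm14 and Taf15, named after their values were seen, were lower and Hnrnpk higher, with log2 differences of -0.56, -0.42 and 0.28 (limma adjusted p = 0.052, 0.10 and 0.13). Rbm14 was called lower in limma among rows of 5 RPKM or more (adjusted p = 0.049), with the members' reads left out (0.044) and without NICeCA replicate 3 (0.049). The most abundant of the list was Hnrnpk, an RNA-binding protein needed for Neat1 processing, with 121 ± 9.13 RPKM in Ctrl and 147 ± 2.66 RPKM in NICeCA libraries (SD, n = 3). Its log2 difference was -0.07 with quantile normalization. Ewsr1 held 66.3 ± 9.26 and 65.0 ± 9.40 RPKM (SD, n = 3; limma adjusted p = 0.91), and its difference of -0.03 was 0.03 with trimmed mean scaling. The median of the list was -0.09.

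The protein subunits of RNase P and RNase MRP, most of which both enzymes share, were not called either. Of 11 genes, 9 were tested and 0 passed in limma or in limma voom, and at an unadjusted p under 0.05 only Rpp21, known as a subunit of RNase P, did. Rpp21 had 16.3, 16.0 and 17.4 RPKM in Ctrl and 21.1, 20.1 and 20.1 RPKM in NICeCA libraries, with a log2 difference of 0.29 (standard error 0.11, limma adjusted p = 0.10). Rpp25l had a log2 difference of 0.18 (limma adjusted p = 0.31). The median of the list was 0.03, beside -0.14 for Rmrp and -0.36 for Rpph1.

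RNA polymerase III makes Rmrp and Rpph1, but not all factors in its list act at their promoters. Of the polymerase and its factors, 4 of 30 tested genes (13.3%) fell and 0 rose, beside 7.68% and 5.88% of all tested rows. The median was -0.15. At an unadjusted p under 0.05, 3 (10%) were higher and 9 (30%) lower, where 14.4% and 21.1% of all tested rows were. Limma voom called 0 higher and 4 lower, with Polr3e (adjusted p = 0.048, named after its values were seen) and without Brf1 (adjusted p = 0.059). Snapc4, the largest subunit of the complex that binds promoters of this kind, went from 5.95, 7.35 and 4.49 RPKM in Ctrl to 2.71, 2.31 and 3.43 RPKM in NICeCA libraries, a log2 difference of -0.85 (standard error 0.19, limma adjusted p = 0.033). Gtf3c1 and Gtf3c2, subunits of TFIIIC, which binds tRNA genes and is not needed at promoters of the Rmrp and Rpph1 kind, had log2 differences of -0.49 and -0.48 (limma adjusted p = 0.042 and 0.037). Brf1, which recruits the polymerase to tRNA genes, fell from 15.4 ± 2.33 to 10.0 ± 0.975 RPKM (SD, n = 3; limma adjusted p = 0.044). With trimmed mean scaling the calls of Brf1 and Gtf3c1 were lost (limma adjusted p = 0.066 and 0.056). With quantile normalization all 4 were lost (limma adjusted p = 0.080 for Brf1, 0.073 for Gtf3c1, 0.054 for Gtf3c2 and 0.060 for Snapc4). Of the alternative fits that held the gene, the call was lost in 10 of 14 for Brf1 and 9 of 14 for Gtf3c1. For Gtf3c2 it was lost in 9 of 14 and for Snapc4 in 7 of 13.

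None of the 15 genes of RNA polymerase I and its factors, which make Rn45s, passed in the limma fit. At an unadjusted p under 0.05, 5 (33.3%) were lower (Polr1a, Polr1b, Ubtf, Taf1a and Taf1c, named after their values were seen), where 21.1% of all tested rows were. Limma voom (adjusted p = 0.0497) and limma with the members' reads left out of the library total (adjusted p = 0.046) called Polr1b lower, with a log2 difference of -0.44 in the RPKM fit (limma adjusted p = 0.057). The median of the list was -0.23. The most abundant, Polr1d, had 48.7 ± 5.12 and 54.9 ± 2.53 RPKM (SD, n = 3; limma adjusted p = 0.36), and its difference of 0.17 was -0.07 with quantile normalization. Polr1c had 24.1 ± 4.65 and 23.1 ± 1.46 RPKM (SD, n = 3; limma adjusted p = 0.85).

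Other short structural RNAs did not pass the test. Of 24 names listed, 9 were in the table and 5 were tested, and 0 passed in limma or in limma voom. Rnu12, an RNA of the minor spliceosome, was the only one at an unadjusted p under 0.05. It had 954, 904 and 500.0 RPKM in Ctrl and 433, 343 and 628 RPKM in NICeCA libraries, and Ctrl replicate 3 was below NICeCA replicate 3 (log2 difference -0.74, standard error 0.30, limma adjusted p = 0.13). Without Ctrl replicate 3 it was called (log2 difference -1.03, limma adjusted p = 0.047). Vaultrc5, the RNA of vault particles and also a polymerase III product, had 464 ± 142 and 684 ± 234 RPKM (SD, n = 3; limma adjusted p = 0.22), with a positive difference of 0.56. Rnu11, Terc (the RNA of telomerase) and Rnu73b had log2 differences of -0.18, -0.13 and -0.56, all with overlapping groups.

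Of 14 other long noncoding RNAs tested, Airn and Kcnq1ot1 (14.3%) fell and 0 rose, beside 7.68% and 5.88% of all tested rows. The median was -0.14. At an unadjusted p under 0.05, 0 were higher and 4 (28.6%) lower, where 14.4% and 21.1% of all tested rows were. Limma voom called 0 higher and 2 lower. These 2 lay beyond the genes named by rule and were named after their values were seen. Both are nuclear transcripts that run antisense through imprinted clusters. Airn had 6.92, 12.0 and 5.13 RPKM in Ctrl and 1.11, 2.55 and 3.11 RPKM in NICeCA libraries (log2 difference -1.45, limma adjusted p = 0.035), and Kcnq1ot1 had 2.60, 4.18 and 2.69 RPKM against 0.636, 1.15 and 1.29 RPKM (log2 difference -1.03, limma adjusted p = 0.026). As the sources used here do not say whether counting used strand, reads of the genes they overlap cannot be separated from theirs. Pvt1, the neighbor of Myc, had 23.1, 57.9 and 27.5 RPKM in Ctrl and 7.24, 10.9 and 20.0 RPKM in NICeCA libraries, with a log2 difference of -1.43 that missed the threshold (standard error 0.41, limma adjusted p = 0.054). Without NICeCA replicate 3, Pvt1 was called (limma adjusted p = 0.037). The host genes of small nucleolar RNAs did not pass, with log2 differences of -0.22 for Gas5, 0.16 for Snhg1 and -0.25 for Snhg12 (limma adjusted p = 0.32, 0.34 and 0.30). 2900097C17Rik and 1700020I14Rik held 58.1 ± 4.61 and 21.9 ± 3.36 RPKM in Ctrl and 50.8 ± 2.34 and 23.0 ± 1.48 RPKM in NICeCA libraries (SD, n = 3; limma adjusted p = 0.29 and 0.73). With quantile normalization the log2 difference of 2900097C17Rik was -0.45 (limma adjusted p = 0.044) in place of -0.19.

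Genes next to the members were compared to see whether a neighborhood moved as a whole. Of 9 tested, 1 (11.1%) fell and 0 rose, beside 7.68% and 5.88% of all tested rows, and the median was -0.23. For 6 of the 9 (66.7%) all NICeCA libraries lay below all Ctrl libraries, where 24.4% of all tested rows did, and for 1 they lay above. The log2 difference was negative for 8 and positive for 1, where 55.3% of all tested rows were negative. Whether a neighborhood moved as a whole was not tested beyond these counts. At an unadjusted p under 0.05, 0 were higher and 2 (22.2%) lower, where 14.4% and 21.1% of all tested rows were. Limma voom called 0 higher and 2 lower (Ltbp3 and Tep1, the latter with a limma adjusted p of 0.053). Frmd8, which lies beside Neat1 on chromosome 19, was lower in every NICeCA library but was not called, with a log2 difference of -0.23 (limma adjusted p = 0.18), and Slc25a45 had a log2 difference of -0.16 (limma adjusted p = 0.53). Ltbp3, which binds latent TGF-beta and lies on the same chromosome, was the gene called, from 8.74, 17.02 and 9.28 RPKM in Ctrl to 2.999, 3.88 and 5.21 RPKM in NICeCA libraries (log2 difference -1.30, standard error 0.26, limma adjusted p = 0.029). Ccdc107, which lies beside the start of Rmrp, had 12.1 ± 0.449 and 10.9 ± 0.974 RPKM (SD, n = 3; limma adjusted p = 0.42). Parp2, which lies beside the start of Rpph1 and was named after its values were seen, had 6.72, 6.46 and 6.90 RPKM in Ctrl and 6.31, 6.08 and 5.59 RPKM in NICeCA libraries (limma adjusted p = 0.39), while Rpph1 itself ranged over 2.74 times.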

How the data were processed

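CD31 bead fractions labelled as TECs, from LLC tumors of NICeCA and Ctrl mice (3 libraries each), were sequenced in bulk after ribosomal RNA depletion (paired reads). The authors deposited RPKM values for 23473 RefSeq and 33353 FANTOM3 rows, without pooling. The submitters' processing notes name TopHat2 and mm9. However, 99.3% of 21665 RefSeq rows matched by symbol overlap that gene in GRCm38.p6, so positions are GRCm38. The sources used here name neither the counting tool nor its strand setting. RPKM multiplied by length gave whole reads, within 0.05, for 100% of values under 1000 reads. RefSeq rows with a mean of at least 1 RPKM were compared as log2(RPKM + 1) with limma 3.58.1 in R 4.3.3 (eBayes with trend, Benjamini-Hochberg, two-sided, adjusted p under 0.05). Differences on this scale understate changes of low genes.

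The methods speak of pairs of mice but give no paired test and do not say which libraries form a pair. The members and the lists were chosen with earlier results of these data known, and the lists were written from general knowledge. Named were, of each list, the called genes or otherwise the 2 most abundant. For other noncoding RNAs and neighbors, genes with a mean of at least 10 RPKM were added. At most 6 per list were named, the most abundant first, and 3 genes most like each member. Alternatives were a replicate block, leaving out each library, other scalings, filters and pseudocounts, and limma voom on recovered reads, which was added after seeing the data. Sequences were read from GENCODE M21, where the 3′ stretches were found by motif. Rn45s has no sequence in the sources used here. Of the genes named by this rule, 1 is not reported here.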

Additional observations from a re-analysis of the deposited data

How the results depend on the processing

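In the 11 alternative fits that can move a member's value, the negative log2 differences kept their sign for Malat1 (-0.86 to -0.46), Neat1 (-1.67 to -1.09) and Rn45s (-2.03 to -1.14). Quantile normalization gave -0.86 for Malat1 and -1.67 for Neat1, and it sets Rmrp and Rpph1 to a difference of 0 by construction, as they are the highest rows of every library. With 1 library left out, Rmrp ranged from -0.38 to 0.04 and Rpph1 from -0.80 to -0.07, and the difference in the members' summed share of reads from -4.95 to -2.19 percentage points (-3.33 over all libraries). Genes called higher and lower were 725 and 946. They were 327 and 209 with the replicate number as a block, 446 and 325 with quantile normalization, 260 and 105 with no filter, 629 and 579 among rows of 5 RPKM or more on average, 1002 and 684 with trimmed mean scaling, 898 and 901 with limma voom, and 26 to 913 and 1 to 832 with 1 library left out. Of the 116 genes of the related machinery, 10 were called lower. This count was 15 with the members' reads left out of the library total, 4 with the replicate block, 5 with quantile normalization, 0 with no filter and 0 to 10 with 1 library left out. Called higher were 0, but 1 (Crcp) under trimmed mean scaling and 0 to 2 (Ssb and Zfp143, without Ctrl replicate 3) with 1 library left out. These 3 genes were named after their values were seen. Under the replicate block Acin1, Pnn, Brf1, Gtf3c1, Gtf3c2 and Snapc4 were not called (limma adjusted p from 0.065 to 0.098). The methods speak of pairs of mice without numbers, and the replicate numbers were not taken as those pairs. The deviations of same-numbered libraries correlated at 0.12, -0.34 and -0.18. Only NICeCA replicate 1 correlated best with its own number, and every other library did so with a different number. Among named genes that were not called, the sign turned with quantile normalization for 1700020I14Rik (-0.0103), Hnrnpk (-0.0726) and Polr1d (-0.0737), with trimmed mean scaling for Ewsr1 (0.0331) and Polr1c (0.0151), and with limma voom for Ewsr1 (0.0059). With 1 library left out it turned for Ewsr1 (-0.1224 to 0.0847), Polr1c (-0.1354 to 0.1007), Rnu11 (-0.4519 to 0.0385), Slc25a45 (-0.2701 to 0.0060) and Terc (-0.3307 to 0.0447). The planned count tests with other tools were not run, because the deposited unit is RPKM. Counting error is small at this depth, and the 3 libraries in each group limit the precision.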
